A study of Mus musculus with 6 samples.

Results

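The lipid uptake genes examined here encode the proteins that release fatty acids from lipoproteins, carry lipids across cell membranes and hold them in the cytoplasm. The set was Lpl, Lipg, Mfsd2a, Fabp3, Fabp5, Fabp7, Apoe, Lrp1 and Cd36, and all 9 were found among the 19938 genes of the array. Each gene was read from the probe set named for that gene alone, and, where there were several, from the one selected on the highest mean log2 value over the 6 arrays, a choice that did not use genotype. The set was drawn up with earlier results of these data known, among them the lower values of Lpl and Mfsd2a, so the genotype differences are given as a description of these genes.

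Neocortex RNA of 6 mouse embryos, taken at embryonic day 14.5, was hybridised to Affymetrix Mouse Gene ST arrays, 1 for each embryo. The embryos were 3 Bcl11a knockout mutants, Bcl11aΔflox/Δflox, in which both copies of the floxed Bcl11a gene were deleted, and 3 controls, wild type for Bcl11a (Bcl11a+/+). Bcl11a encodes a zinc finger protein that regulates transcription in cortical projection neurons, and the study's title links it to neuronal migration through Sema3c. The labels give no Cre line, no deleted cell type, no strain and no embryo sex.

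The developing brain builds membranes at a high rate and takes part of its lipid from the circulation. Lipases at the vessel wall or cell surface split lipoprotein lipids, transporters and scavenger receptors move the products into cells, fatty acid binding proteins carry them through the cytoplasm, and apolipoprotein E particles pass lipid between cells through receptors such as Lrp1. Fabp7, also called brain lipid binding protein, is a widely used marker of radial glia, the progenitors of cortical neurons. Mfsd2a is known for carrying docosahexaenoic acid, bound in lysophosphatidylcholine, across the endothelium of brain vessels.

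Of the 9 genes, 6 had a RefSeq promoter window in the sequence table, which runs from 250 bases before to 50 bases after a gene's start. Lpl, Lipg and Fabp5 had none, so the motif counts below do not cover them. The windows of Mfsd2a and Apoe are shown because these genes had the clearest separation of the genotypes in opposite directions. Mfsd2a (chr4:122961139-122961438, minus strand, GRCm38.p6) and the first of the 3 windows listed for Apoe (chr7:19699139-19699438, minus strand, GRCm38.p6) read, 5′ to 3′, with capitals for a CCAAT match on either strand:
Mfsd2a: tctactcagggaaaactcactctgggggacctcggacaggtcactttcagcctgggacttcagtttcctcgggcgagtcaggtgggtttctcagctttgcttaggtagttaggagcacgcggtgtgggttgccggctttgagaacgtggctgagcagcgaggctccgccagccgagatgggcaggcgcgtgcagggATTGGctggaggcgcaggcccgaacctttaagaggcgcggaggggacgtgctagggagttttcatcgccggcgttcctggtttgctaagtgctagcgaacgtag
Apoe: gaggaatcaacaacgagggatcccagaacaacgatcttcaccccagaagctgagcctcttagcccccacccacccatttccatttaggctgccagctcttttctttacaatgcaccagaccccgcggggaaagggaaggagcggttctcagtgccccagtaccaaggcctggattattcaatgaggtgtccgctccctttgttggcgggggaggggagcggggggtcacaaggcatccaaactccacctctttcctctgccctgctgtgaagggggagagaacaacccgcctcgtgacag
The Mfsd2a window held 1 CCAAT match, on its minus strand and starting 54 bases before the gene's start (position -54), and the Apoe window held none. CCAAT, a motif picked after these sequences were seen, was found on either strand in 3 of the 8 windows of these genes and in 37.4% of all 32851 windows. The motif TGACCA, known as a binding sequence of the human BCL11A protein, was in none of the 8 windows on either strand, and in 13.6% of all windows. TGACCA and CCAAT can share letters, and the absence of the letters from 300 bases says nothing of binding elsewhere.

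The arrays resembled each other, with correlations between 0.993 and 0.997 over all probe sets and array medians between 7.23 and 7.33 on the log2 scale. Bcl11a read 11.41, 11.49 and 11.34 in mutants 1 to 3, against 12.20, 12.30 and 12.26 in controls 1 to 3. Its difference of -0.84 had a limma adjusted p of 0.00201, but the position of its probes with respect to the deletion is unknown here. Over all genes, 57 passed an adjusted p under 0.05 in limma, 49 higher and 8 lower in the mutants. Of 9 measured red blood cell markers, 6 passed, all higher (Hbb-bh1, Slc4a1, Hba-x, Kel, Rhag and Epb42).

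None of the 9 lipid uptake genes passed that threshold, where 0.286% of all genes did. Without adjustment, 5 of the 9 had a limma p under 0.05 (Lpl, Lipg, Mfsd2a, Apoe and Cd36), against 6.05% of all genes. For these same 5 genes the arrays of the genotypes did not overlap, 2 of them higher in the mutants (7.69% of all genes) and 3 lower (2.85% of all genes), where 10.5% of all genes were apart in either direction. Because the set was drawn up with results known, nothing is read from these counts. The median log2 difference of the 9 genes was -0.05, beside 0.02 over all genes, and the median size of the difference was 0.21, beside 0.05 over all genes. The differences ran in both directions, from -0.79 for Lpl to 0.50 for Apoe.

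**Figure D1:**
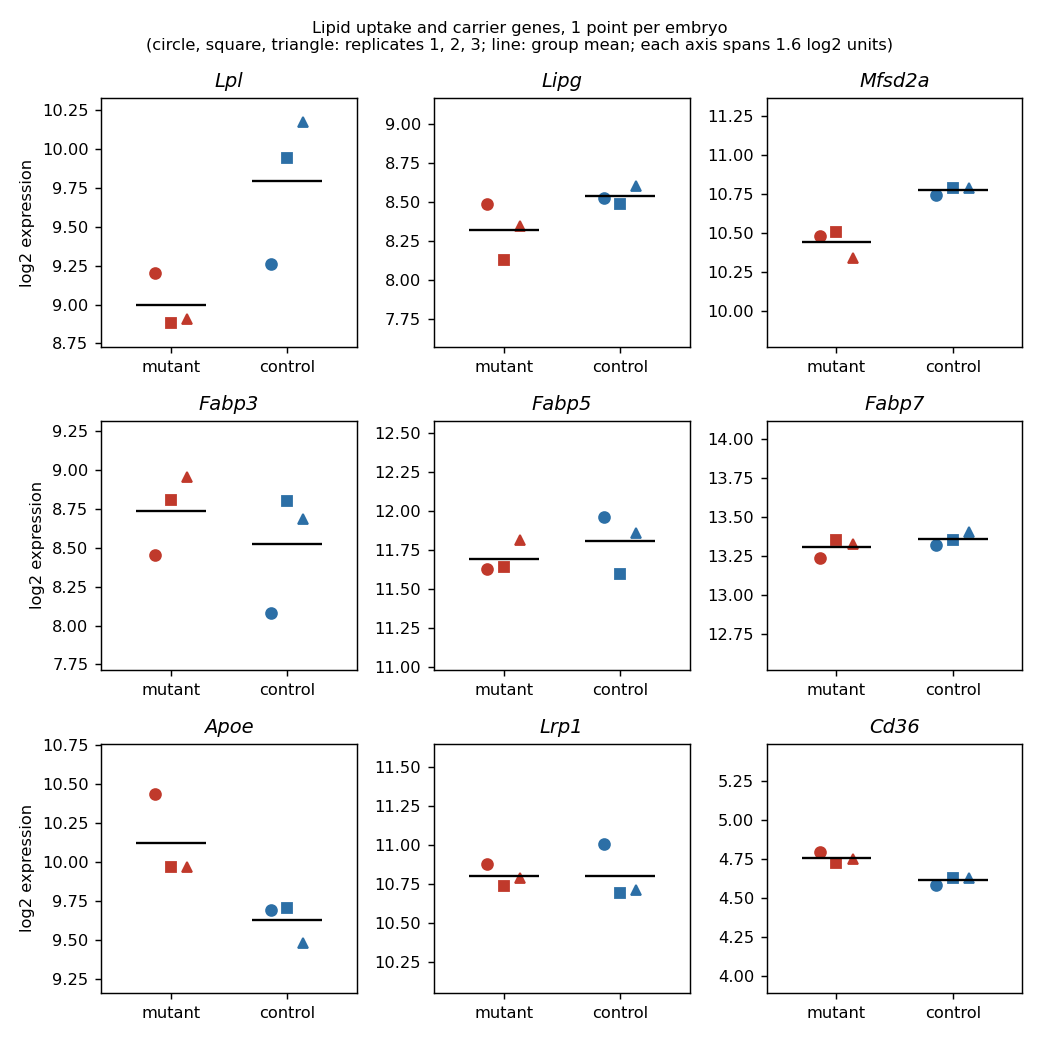
Expression (log2) of the 9 lipid uptake and carrier genes, with mutants left and controls right, 1 point per embryo, replicates 1, 2 and 3 as circle, square and triangle, and the group mean as a line. Every axis spans 1.6 log2 units; the groups are apart for Lpl, Lipg, Mfsd2a, Apoe and Cd36, and control 1 lies near the mutants for Lpl.

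Among the lipases, both genes read lower in the mutants. Lpl (Entrez 16956), lipoprotein lipase, splits triglycerides of circulating lipoproteins into fatty acids. Its log2 expression was 9.20, 8.88 and 8.91 in mutants 1 to 3, against 9.26, 9.94 and 10.17 in controls 1 to 3. The 3 mutants spanned 0.32, and the 3 controls spanned 0.91, more than the difference between the group means. Control 1 lay 0.058 above the highest mutant. Lpl averaged 8.997 ± 0.18 in mutants and 9.79 ± 0.47 in controls (SD, n = 3 arrays each). The log2 difference was -0.79 ± 0.21 (SE), with a 95% interval of -1.26 to -0.32. This was 1.73-fold lower in mutants. It ranked 45th of 19938 genes by size of difference, and its limma adjusted p was 0.298. An exact permutation test of the means, two-sided, gave p = 0.1, which is the lowest value open to 3 against 3 arrays. Any gene whose groups do not overlap gives this value (10.5% of all genes), so it adds nothing to the separation given above. Without control 1 the difference was -1.06 and Lpl passed (limma adjusted p = 0.0162), while leaving out any other array gave -0.90 to -0.60 without a pass. With all 6 arrays kept but weighted by their quality, it was -0.93 and Lpl also passed (limma adjusted p = 0.0175).

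Lipg (Entrez 16891), endothelial lipase, acts mainly on phospholipids of high-density lipoproteins. It read 8.49, 8.13 and 8.34 in mutants 1 to 3, against 8.53, 8.49 and 8.61 in controls 1 to 3. The groups met without overlapping, the highest mutant lying 0.0003 under the lowest control. The log2 difference was -0.22 ± 0.09 (SE, 95% interval -0.43 to -0.0099, limma adjusted p = 0.778), and -0.12 without mutant 2, the lowest array.

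The lipid transporter Mfsd2a (Entrez 76574) had the smallest p of the 9 genes. Its log2 expression was 10.48, 10.50 and 10.34 in mutants 1 to 3, against 10.74, 10.79 and 10.79 in controls 1 to 3. The 3 controls lay within 0.051 of each other, and the highest mutant lay 0.24 under the lowest control. Mfsd2a averaged 10.44 ± 0.09 in mutants and 10.77 ± 0.03 in controls (SD, n = 3 arrays each). The log2 difference was -0.33 ± 0.07 (SE, 95% interval -0.48 to -0.18), which is 1.26-fold lower in mutants, with a limma adjusted p of 0.126. It stayed between -0.36 and -0.28 when any 1 array was left out, without a pass.

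Because Mfsd2a is known from brain vessels, the endothelial markers are given beside it. Of 14 endothelial genes, 13 had a positive difference and none passed. Their mean log2 level was 8.46 to 8.81 in mutants and 8.40 to 8.60 in controls, ranges that overlap. The endothelial genes with the largest differences were Tek, an angiopoietin receptor, at 0.32, and Slc16a1, a monocarboxylate transporter, at -0.26 (limma adjusted p = 0.626 and 0.482). The mean of these markers was highest in mutant 1 (8.81) and lay within the control range in mutants 2 and 3 (8.46 and 8.57). Of the 14, 2 were higher without overlap (14.3%, beside 7.69% of all genes). Slc16a1 alone was lower without overlap, like Mfsd2a (2.85% of all genes). Which cells gave the Mfsd2a values was not tested. In tissue RNA, fewer cells of a type and less RNA per cell cannot be told apart.

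The groups overlapped for all 3 cytoplasmic carriers, Fabp7, Fabp5 and Fabp3. Fabp7 (Entrez 12140) read 13.23, 13.35 and 13.33 in mutants 1 to 3, against 13.32, 13.35 and 13.40 in controls 1 to 3. The difference was -0.05 ± 0.06 (SE, 95% interval -0.19 to 0.09, limma adjusted p = 0.9995). These values lie near the top of the arrays' range, whose highest probe set read 13.8. The 12 radial glia markers had a mean log2 level of 10.62 to 10.66 in mutants and 10.67 to 10.69 in controls, 4 with a positive difference and none past the threshold. Hopx, a marker of a radial glia subset, differed by -0.43 (limma adjusted p = 0.163), and Tnc, a matrix glycoprotein, by 0.20 (0.9995). The median difference of the 12 markers was -0.02, beside 0.02 over all genes. The lower mean level of the list in mutants comes largely from 1 gene, Hopx.

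Fabp5 (Entrez 16592), the epidermal form, read 11.63, 11.64 and 11.82 in mutants 1 to 3, against 11.96, 11.60 and 11.86 in controls 1 to 3. The groups overlapped, with the lowest and the highest array both controls, and the difference was -0.11 ± 0.10 (SE, 95% interval -0.34 to 0.12, limma adjusted p = 0.9995). A further probe set named Fabp5 differed by -0.14 and had its lowest value in mutant 1, and near-identical copies of Fabp5 in the genome leave its level uncertain. RefSeq places Fabp5 on chromosome 3. Probe set numbers rose with the chromosome from Mfsd2a on 4 to Lpl on 8. The probe set used for Fabp5 is numbered after that of Lpl, and the further one before that of Mfsd2a. Which of them reads the gene itself was not tested.

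Fabp3 (Entrez 14077), the heart form, read 8.45, 8.81 and 8.95 in mutants 1 to 3, against 8.08, 8.80 and 8.69 in controls 1 to 3. The groups overlapped and replicate 1 was the lowest array of both genotypes. The difference was 0.21 ± 0.19 (SE, 95% interval -0.22 to 0.65, limma adjusted p = 0.9995), and it was -0.0073 without control 1. A further probe set named Fabp3 differed by 0.23. RefSeq lists Fabp3 on chromosome 4 and a pseudogene, Fabp3-ps1, on chromosome 10. The probe set used is numbered between those of Fabp7 and Lrp1, both genes of chromosome 10. The further one is numbered nearer to that of Mfsd2a, on chromosome 4. No source used here says which probe sets can bind the pseudogene, and its part in these values was not tested, so the level of Fabp3 is uncertain.

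Apoe (Entrez 11816), apolipoprotein E, the main apolipoprotein made in the brain, read higher in the mutants. Its log2 expression was 10.44, 9.97 and 9.97 in mutants 1 to 3, against 9.69, 9.70 and 9.48 in controls 1 to 3. Every mutant lay above every control, by at least 0.26, and mutant 1 stood above the other mutants. Apoe averaged 10.13 ± 0.27 in mutants and 9.63 ± 0.12 in controls (SD, n = 3 arrays each). The difference was 0.50 ± 0.13 (SE, 95% interval 0.20 to 0.79), a 1.41-fold higher level in mutants, with a limma adjusted p of 0.298. Without mutant 1 it was 0.34 (limma adjusted p = 0.455).

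The mean levels of macrophage markers and of pericyte and meninges markers were higher in each mutant than in any control, with mutant 1 the highest, as were the Apoe values. This order was not particular to them. The mean of 14 apolipoproteins and cholesterol efflux genes had it too (7.72 to 7.82 in mutants, 7.62 to 7.69 in controls). So did the mean of 14 fatty acid transport and activation genes (8.23 to 8.26 in mutants, 8.14 to 8.17 in controls). The median over all genes was also highest in mutant 1 (7.99), beside 7.90 and 7.94 in mutants 2 and 3 and 7.89 to 7.93 in controls. The list means were not corrected for this. All 13 microglia and macrophage markers had positive differences, where 60.3% of all genes did, and none passed the threshold. Of the 13, 6 were higher without overlap (46.2%, beside 7.69% of all genes). The mean log2 level of the 13 was 7.49, 7.28 and 7.34 in mutants 1 to 3, against 7.03, 7.19 and 7.18 in controls 1 to 3. Fcrls, a microglial receptor, differed by 0.45, and Mrc1, the mannose receptor of macrophages at brain borders, by 0.45 with 6.83 in mutant 1 and at most 5.74 in every other array. Of 12 pericyte and meninges markers, 11 had positive differences and none passed. Their mean level was 8.05, 7.35 and 7.30 in mutants 1 to 3, against 7.16, 7.17 and 7.08 in controls 1 to 3. Of the 12, 4 were higher without overlap (33.3%, beside 7.69% of all genes): Col1a1, Col1a2, Dcn and Lum. The groups overlapped for the pericyte markers Pdgfrb, Cspg4, Rgs5, Kcnj8 and Abcc9. Dcn, decorin of connective tissue, read 10.49, 8.32 and 7.27 in mutants 1 to 3, against 6.62, 6.58 and 6.62 in controls 1 to 3, so that every mutant lay above every control (difference 2.09, limma adjusted p = 0.471). The proteoglycan Lum read 6.90 in mutant 1 and at most 4.78 elsewhere. The part of these cells in the Apoe values was not tested.

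Lrp1 (Entrez 16971), a large endocytic receptor that takes up apolipoprotein E particles, had overlapping groups. It read 10.88, 10.74 and 10.79 in mutants 1 to 3, against 11.01, 10.69 and 10.71 in controls 1 to 3. The controls spanned both ends of the range, and the difference was -0.0016 ± 0.09 (SE, 95% interval -0.21 to 0.21, limma adjusted p = 0.9995).

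Cd36 (Entrez 12491), a scavenger receptor and fatty acid translocase, read 4.80, 4.72 and 4.75 in mutants 1 to 3, against 4.58, 4.63 and 4.63 in controls 1 to 3. The mutants were above the controls by at least 0.096, with a difference of 0.14 ± 0.06 (SE, 95% interval 0.01 to 0.27, limma adjusted p = 0.706). All these values lie under the lower quartile of every array, 5.59 to 5.70, and the deposited table gives no detection call, so a level above background was not shown for Cd36.

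**Figure D2:**
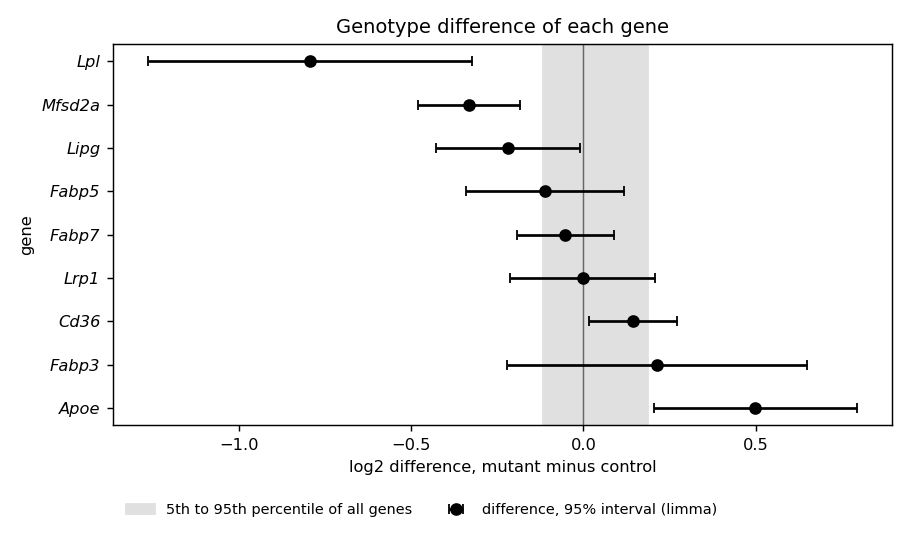
Log2 difference of mutants minus controls for each of the 9 genes, as points with 95% intervals from limma, above a grey band from the 5th to the 95th percentile of all 19938 genes (-0.12 to 0.19). The intervals of Lpl, Mfsd2a and Lipg lie under 0 and those of Apoe and Cd36 over 0, before any adjustment for the number of genes.

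The other genes of lipid transport were read from 6 lists with 78 measured genes of 88 listed. Of the 78, 1 passed over all genes, Crabp1, and 60 (76.9%) had a positive difference, where 60.3% of all genes did. Their median difference was 0.05, beside 0.02 over all genes. The median over all genes was -0.0053 after renewed quantile normalization and -0.020 after median centring. Shares of positive differences can shift with the normalization and were not recounted under those settings. The groups did not overlap for 15 of the 78, 14 higher and 1 lower in the mutants. Over all genes, 7.69% were higher and 2.85% lower without overlap.

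Crabp1, a carrier of retinoic acid from the same intracellular lipid-binding family as the Fabp genes, fell by 0.95 on the log2 scale. It averaged 9.50 ± 0.22 in mutants and 10.45 ± 0.08 in controls (SD, n = 3 arrays each) and its limma adjusted p was 0.0101. Lower calls made up 0.0401% of all genes. Crabp1 did not pass without mutant 2 or control 2 (limma adjusted p of up to 0.069). Of the 11 measured genes of this family outside the Fabp genes described above, 8 had positive differences and the median was 0.03.

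Among 14 apolipoproteins and cholesterol efflux genes, none passed, 9 had positive differences (64.3%, beside 60.3% of all genes) and 3 were higher without overlap (21.4%, beside 7.69% of all genes). Abca1, the transporter that loads cholesterol and phospholipid onto apolipoproteins, read 9.04, 8.85 and 8.97 in mutants 1 to 3, against 8.59, 8.66 and 8.56 in controls 1 to 3. Its difference of 0.35 ± 0.07 (SE) had a limma adjusted p of 0.126. Pltp, the phospholipid transfer protein, differed by 0.54 ± 0.21 (SE, limma adjusted p = 0.688) and read 9.41 in mutant 1, against at most 8.60 in the other mutants and 8.43 in controls. Abcg1, a further cholesterol exporter named after its values were seen, differed by 0.27 (0.2404).

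None of 11 lipases and their partners passed, and no gene of that list had groups apart. Pnpla2, the adipose triglyceride lipase, differed by 0.26 and Lipa, the lysosomal acid lipase, by 0.22 (limma adjusted p = 0.748 and 0.954). Gpihbp1, named here because it holds Lpl at the capillary wall, differed by -0.03 with overlapping groups. None of 12 lipoprotein receptors passed, and 4 were higher without overlap (33.3%, beside 7.69% of all genes). Sorl1, a sorting receptor that binds Lpl and Apoe, differed by 0.39, and Lrpap1, the chaperone of Lrp1 and related receptors, by 0.21 (limma adjusted p = 0.534 and 0.689).

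None of 14 fatty acid transport and activation genes passed, and 12 had positive differences. Slc27a3, a member of the fatty acid transport protein family, read 7.42, 7.38 and 7.42 in mutants 1 to 3, against 6.997, 7.09 and 7.16 in controls 1 to 3. Its difference was 0.32 ± 0.06 (SE, limma adjusted p = 0.122). Cav1, the caveolin of endothelial caveolae, differed by 0.52 ± 0.10 (SE, limma adjusted p = 0.1304). Of 16 genes of lipid droplets, oxidation and lipid-sensing receptors, none passed and 13 had positive differences. Acadl and Cpt2, enzymes of mitochondrial fatty acid oxidation, differed by 0.31 and 0.25 (limma adjusted p = 0.823 and 0.343).

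**Figure D3:**
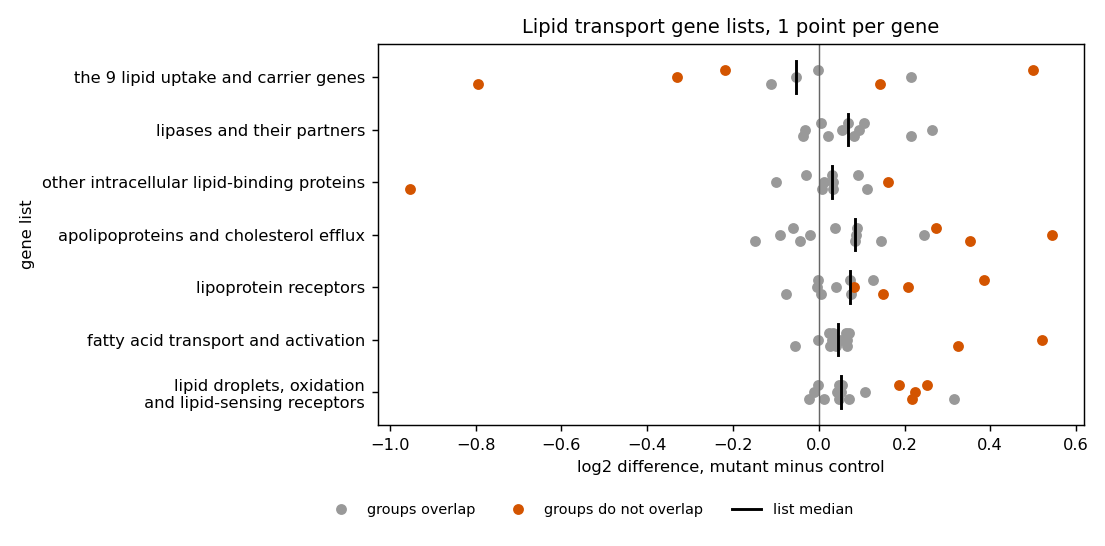
Log2 difference of mutants minus controls for each gene of 7 lipid transport lists, 1 point per gene, orange where the groups do not overlap and grey where they do, with a black line at the list median. The 9 lipid uptake and carrier genes spread from -0.79 to 0.50, the other lists have medians between 0.03 and 0.09, and Crabp1 lies alone at -0.95.

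The genes whose profile over the 6 arrays was most like that of Lpl were Necab1, Bcan and Cdo1, with Pearson correlations of 0.98, 0.97 and 0.97 among 860 genes compared. All 3 share the low control 1 and the low mutants. Bcan, brevican of the brain matrix, read 8.08, 8.05 and 7.97 in mutants 1 to 3, against 8.12, 9.01 and 9.11 in controls 1 to 3. Necab1, a neuronal calcium-binding protein, differed by -0.31 and Cdo1, cysteine dioxygenase, by -0.48, and none of the 3 passed (lowest limma adjusted p = 0.1395).

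Those most like Mfsd2a were Myc, Nptx1 and Bcl11a itself, at 0.99, 0.98 and 0.98. The differences of Myc, a transcription factor of growth, and Nptx1, a neuronal pentraxin, were -0.52 and -0.40 (limma adjusted p = 0.048 and 0.0585). Myc no longer passed when any single array was removed (up to 0.207). The 6 points of these correlations share the genotype split and the normalization, so they are given as a description.

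The 8 neuron markers had a mean log2 level of 11.37 to 11.42 in mutants and 11.33 to 11.42 in controls, with Nefl at 0.23 and Snap25 at -0.20. The 9 measured markers of callosal and upper-layer neurons had a mean level of 9.63 to 9.75 in mutants and 9.53 to 9.58 in controls, with Lmo4 at 0.30 and Dkk3 at 0.26. No gene of either list passed. The 7 choroid plexus markers had a mean level of 5.78 to 5.82 in mutants and 5.63 to 5.89 in controls, with Folr1 at 0.10 and Otx2 at 0.09.

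**Figure D4:**
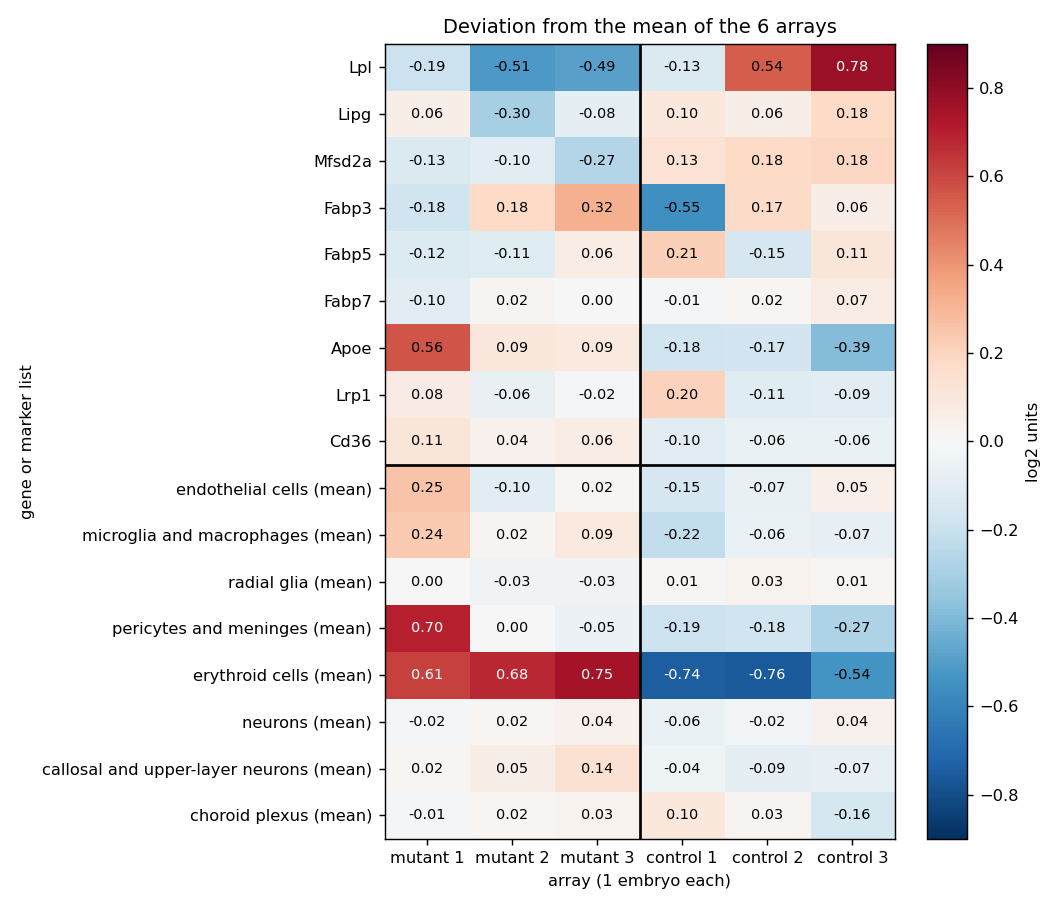
Deviation of each array from the mean of the 6 arrays, in log2 units, for the 9 genes (top) and for the mean of each marker list (bottom), with mutants left and controls right. Mutant 1 is high for Apoe (0.56) and for the pericyte and meninges list (0.70), and control 1 is low for Fabp3 (-0.55). The mutant and control arrays are apart for the erythroid, microglia, pericyte and meninges, and callosal lists (mutants higher). They are also apart for the radial glia list (mutants lower), where the difference of the mean comes largely from 1 gene, Hopx.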

How the data were processed

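RNA of each embryo was column-purified and biotin-labelled for whole-transcript arrays, per the labels' protocols. Per the submitters' processing notes, the authors used Affymetrix Expression Console and RMA, which corrects background, quantile-normalizes and summarises probes, so that most-gene shifts are hidden and dim differences are understated. The deposited values were taken as log2 from their range, 3.41 to 13.8. Versions and genome build were not stated in the labels. There is no read depth, and 3 arrays a group limit the precision.

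The platform annotation from GEO, possibly outdated, gave 1 symbol to 21789 of 35556 probe sets, several to 1621 and none to 12146. Of the 21789, 21698 matched a RefSeq table (GRCm38.p6) by Entrez number, with no symbol changed. Probe sets with 1 symbol were used, 1 per gene (highest mean), 19938 genes. Mutants minus controls were fitted with limma 3.58.1 under R 4.3.3 (lmFit, eBayes, no covariate), with two-sided p-values adjusted by Benjamini-Hochberg over all genes, and tested on simulated data. An exact permutation test was run for Lpl. The members and lists were chosen with earlier results of these data known. By a fixed rule, all members were named, and from each list the genes past the threshold, or otherwise the 2 largest differences. Profile likeness was Pearson's r over 6 arrays among genes with a mean of at least 7 and an SD of at least 0.2. Promoter sequences are RefSeq's, GRCm38.p6. Alternatives changed the normalization, array weights, replicate block, dim-gene filter, probe set rule, variance prior, threshold and arrays used.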

Additional observations from a re-analysis of the deposited data

How the results depend on the processing

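The number of genes past the threshold, 57, was 107 at an adjusted p under 0.1, 217 with array weights, 34 with the replicate block, and 20 to 50 with any single array removed, a smaller fit. It stayed within 1.5 times of 57 under renewed quantile normalization, median centring, the filter on genes with a mean under 6, both other probe set rules and a trended variance prior. Of the 9 lipid uptake genes, 2 passed with array weights, Lpl at -0.93 (limma adjusted p = 0.0175) and Mfsd2a at -0.32 (0.0319), and 0 to 1 when 1 array was left out, the 1 being Lpl without control 1. The array weights ran from 0.45 for control 3 to 3.02 for control 2. None passed under the other settings, the replicate block and the adjusted p under 0.1 included. The sign of Lpl, Lipg, Mfsd2a, Fabp7, Apoe and Cd36 held in every setting that tested them, with Lpl between -1.06 and -0.60 and Apoe between 0.34 and 0.58. Cd36 was not tested after the dim-gene filter. The sign turned for Fabp5 with array weights (0.0053), for Lrp1 with array weights (0.037) and in 3 fits that left out 1 array (-0.056 to 0.10 over the 6), and for Fabp3 without control 1 (-0.0073 to 0.36 over the 6). These 3 genes were near 0 or overlapped between groups, and the cause was not tested. The deviations of arrays with the same number correlated at 0.03, -0.14 and 0.08, so the numbers were not taken to pair the samples.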

Other observations

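For 5 of the 9 lipid uptake genes (Lpl, Mfsd2a, Fabp3, Lrp1 and Cd36), control 1 was the control farthest from the mean of the other 2 controls, and over all genes it was the farthest in 35.3%. Mutant 1 was the mutant farthest from the mean of the other 2 mutants for 6 of the 9, and for 40.7% of all genes. The genes are few and some share cell types, so these shares are a description of the arrays.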
